A study of Mus musculus with 16 samples.

Results

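The genes described here encode 10 enzymes that make serine, asparagine, proline and cysteine or pass carbon from serine to folate. They were chosen by symbol, and all 10 were found among the 55367 gene symbols of each count table and passed the filter on low counts, which kept 19509 genes. Their mRNA was measured by RNA-seq in mIMCD3 cells, a mouse inner medullary collecting duct line. The 16 libraries were 2 biological replicates of each of 8 groups. Wild-type (WT) cells were pretreated for 5 h with DMSO, the solvent, or with 10 µM sulforaphane (SFN), an activator of the transcription factor Nrf2. They were then collected without stress (isosmotic) or after 1 h or 6 h of hyperosmotic stress. Nrf2-/- cells, in which the gene Nfe2l2 that encodes Nrf2 was targeted by CRISPR/Cas9, were all pretreated with SFN and were isosmotic or at 1 h. That line was made by lentiviral delivery and antibiotic selection, and whether it grew from a single clone is not given in the sources used here. Loss of Nrf2 and other differences between the lines therefore cannot be told apart. Both genotypes compared were SFN-pretreated, and no DMSO-pretreated Nrf2-/- library was analysed here. A difference already present without SFN and a different response to SFN thus cannot be told apart either.

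Serine is made from the glycolytic intermediate 3-phosphoglycerate in a short chain. Phgdh performs the first and committed step, Psat1 adds the amino group and Psph removes the phosphate. In mitochondria, Shmt2 splits serine into glycine and a carbon unit carried by folate, which Mthfd2 oxidises for use in nucleotide synthesis. Asns makes asparagine from aspartate and glutamine. Aldh18a1 reduces glutamate in the first steps towards proline, and Pycr1 performs the last reduction, which yields proline. In transsulfuration, Cbs joins homocysteine and serine, and Cth releases cysteine, a building block of glutathione. Many of these genes are known targets of Atf4, the transcription factor of the integrated stress response, which cells start when amino acids run short. The set was chosen as amino acid synthesis enzymes under Atf4 control, so its members are not independent picks. Nrf2 is best known for glutathione and antioxidant genes, and it has been linked to serine synthesis through Atf4 in cancer cells.

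Total counts per library lay between 34484296 and 50774875. The biological coefficient of variation between the 2 libraries of a group was 0.0393 to 0.128 in 7 groups. It was 0.348 in the Nrf2-/- 1 h group, which stood apart in its spread. For the enzymes, a call that changes without a library of that group is therefore said to do so. Calls of the other genes named below were not checked in this way. Each standard error (SE) below rests on 1 estimate of spread per gene shared by all 8 groups. It does not show the wider spread of the Nrf2-/- 1 h group, for which it may be too small. Nfe2l2 stayed at 11.0 to 11.6 CPM (counts scaled by TMM to a common library size) in the 4 Nrf2-/- libraries and at 64.0 to 149 CPM in the 12 WT libraries, so the groups did not overlap, although reads of the gene remained. Of 18 collecting duct markers, 11 were over 1 CPM in every library, while Aqp2, Aqp3, Aqp4, Scnn1b and Scnn1g were under 1 CPM in every library. The summed marker level was 2474 to 5572 CPM in WT and 3254 to 4355 CPM in Nrf2-/- libraries. Summed markers reached at most 27.53 CPM for proximal tubule, 10.75 for leukocytes, 7.657 for fibroblasts, 5.358 for endothelium, 1.682 for intercalated cells, 1.297 for thick limb and distal tubule and 0.4056 CPM for podocytes, and the proximal tubule sum was 9.064 to 27.53 CPM in WT and 2.498 to 5.71 CPM in Nrf2-/- libraries. Fewer cells of a type and less RNA per cell cannot be told apart in these bulk libraries.

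All 10 genes lie on the minus strand of GRCm38, on 7 chromosomes. Asns spans chr6:7675169-7693254 and Cth chr3:157894248-157925077. Pycr1 spans chr11:120635712-120643769, Psat1 chr19:15904678-15947337 and Aldh18a1 chr19:40550257-40588463. Overlaps with other genes bear on the counts, because whether counting used strand is not given in the sources used here. Psph shares 452 exon bases, 10.4% of its exon length, with Cct6a on the other strand, a chaperonin gene at 632 CPM in WT DMSO isosmotic cells. Shmt2 shares 32 exon bases with Ndufa4l2, which stood at 0.0248 CPM in that group before TMM scaling. Cbs starts 9843 bases past the end of U2af1, a splicing factor gene on the same strand at 126 CPM.

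Promoters were read from RefSeq (GRCm38.p6), which held 9 of the 10 genes; Cth had no entry. Each was searched on both strands, from 250 bases before the start to 50 after it, for TGATGNAA, a core of the element that Atf4 binds with C/EBP proteins, and for TGACNNNGC, the core of the antioxidant response element that Nrf2 binds. Among 32851 promoters of that length, 3.97% held the first and 12.4% the second. The first was found in Asns and Pycr1, and the second in Phgdh, Asns and Psph, with no match of either in the other 5 genes searched. The Psph match lay 4 to 12 bases after the start. Absence of a match holds for the RefSeq starts only: GENCODE places the starts of Psat1 and Mthfd2 further upstream, outside the stretches searched. The bases upstream of the RefSeq start are shown for Asns and Pycr1, whose mRNA was among those most raised in Nrf2-/- cells, and for Phgdh, whose mRNA did not pass the test there. Capitals mark every match of either motif, read 5′ to 3′ on the minus strand, at chr6:7693225-7693409 for Asns, chr11:120643770-120643948 for Pycr1 and chr3:98339991-98340169 for Phgdh.
Asns: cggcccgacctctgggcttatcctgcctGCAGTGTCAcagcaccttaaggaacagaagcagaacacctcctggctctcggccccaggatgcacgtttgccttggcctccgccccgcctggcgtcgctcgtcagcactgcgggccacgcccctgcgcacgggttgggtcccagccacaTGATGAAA
Pycr1: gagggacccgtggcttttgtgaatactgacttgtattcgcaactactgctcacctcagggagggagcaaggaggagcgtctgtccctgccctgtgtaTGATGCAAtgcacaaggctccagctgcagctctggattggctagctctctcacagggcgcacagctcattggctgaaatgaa
Phgdh: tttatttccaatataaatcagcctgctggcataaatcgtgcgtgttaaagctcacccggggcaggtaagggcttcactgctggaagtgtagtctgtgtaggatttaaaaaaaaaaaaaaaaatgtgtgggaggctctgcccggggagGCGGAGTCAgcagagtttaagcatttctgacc
In Asns the first motif ended 16 bases before the RefSeq start, and GENCODE places the start of the gene 45 bases further upstream, so that by GENCODE this match lies in the first exon. The second motif of Asns lay 172 to 164 bases before the RefSeq start, that of Phgdh 53 to 45 bases before it, and the match in Pycr1 103 to 96 bases before it. A match of letters is a description of the sequence only.

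Per kilobase of exon, the enzymes differed widely in level in WT DMSO isosmotic cells. Phgdh led at 309.9 CPM per kb (mean, n = 2), followed by Shmt2 at 102.6 and Psat1 at 78.3 CPM per kb. Aldh18a1 at 45.7 and Asns at 44.6 CPM per kb came next, and the libraries of these 2 genes overlapped. Mthfd2 stood at 36.1 CPM per kb, Psph at 8.17, Cth at 3.81 and Pycr1 at 2.45 CPM per kb, and Cbs was barely expressed at 0.169 CPM per kb. The order was the same in isosmotic WT cells with SFN. In isosmotic Nrf2-/- cells it differed in the place of Asns, which came after Phgdh at 153 CPM per kb, beside Shmt2 and Psat1 at 144 CPM per kb each, and the libraries of these 3 genes overlapped. Phgdh remained the highest there at 298 CPM per kb. The plot of each enzyme in every library shows these levels without the division by length.

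**Figure D1:**
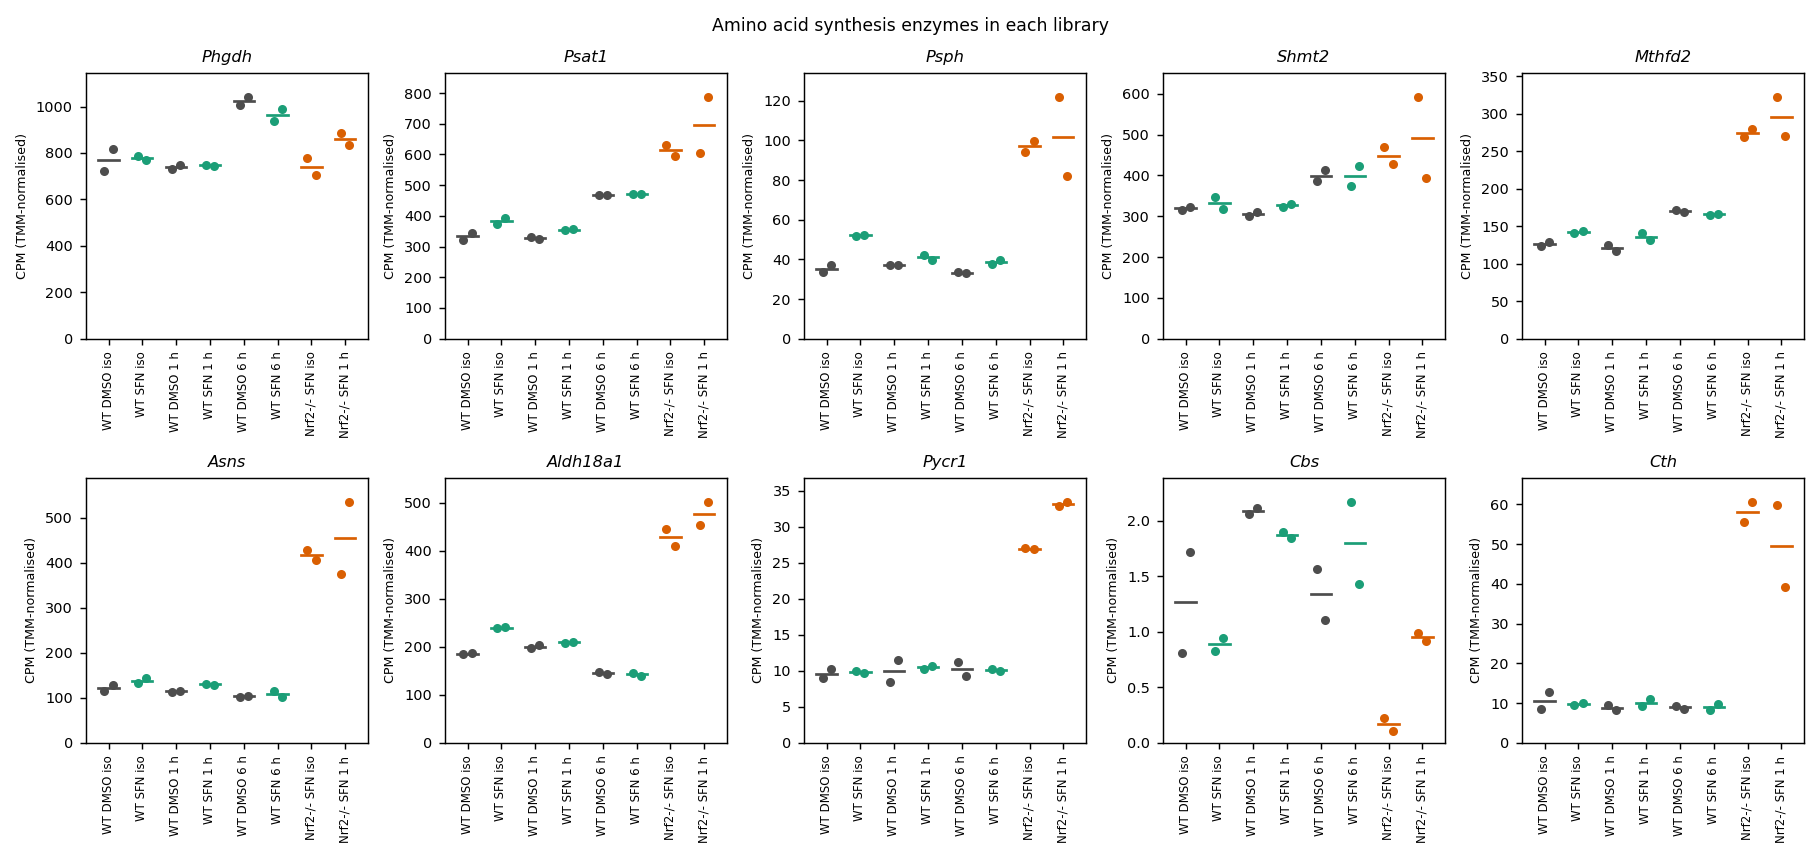
CPM (TMM-scaled, linear axes from 0) of the 10 enzymes in each of the 16 libraries; points are libraries, lines are group means (n = 2), and colour marks DMSO WT, SFN WT and Nrf2-/- cells. Asns, Cth, Pycr1, Aldh18a1, Psph, Psat1 and Mthfd2 sit higher in the Nrf2-/- libraries than in every WT library, Phgdh is highest in WT cells at 6 h, and the Nrf2-/- 1 h libraries are spread for Asns, Psph, Shmt2 and Cth.

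The Nrf2-/- and WT cells were compared under SFN to ask which enzymes differed in cells without Nrf2. In isosmotic cells, 8 of the 10 were higher in Nrf2-/- cells and 1 was lower, where 15.7% of all genes tested were higher and 18.4% lower (34.1% in either direction). The median log2 fold change of the 10 was 0.865, against -0.000912 over all genes. At 1 h, 8 were higher and none lower, where 15.3% of all genes were higher and 16.2% lower (31.5% in either direction), with a median of 1.16 against -0.0219. The same 8 enzymes were called at both times. The 10 took 0.191% to 0.2234% of all counts in WT libraries and 0.3125% to 0.3407% in Nrf2-/- libraries.

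**Figure D2:**
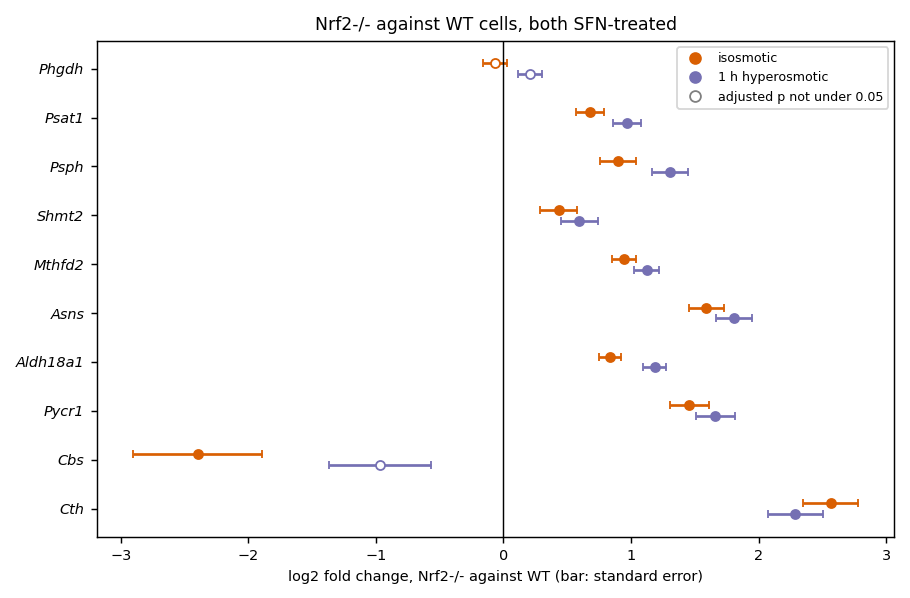
Log2 fold change of each enzyme in Nrf2-/- against WT cells, both SFN-pretreated, isosmotic and after 1 h of hyperosmotic stress (n = 2 libraries per group); bars are standard errors, and open points did not pass an adjusted p of 0.05. Cth, Asns and Pycr1 lie farthest to the right at both times, Phgdh lies near 0 and Cbs lies to the left. The bars rest on a spread per gene shared by all groups and do not show the wider spread of the Nrf2-/- 1 h libraries.

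Asns stood at 429 and 406 CPM in the isosmotic Nrf2-/- libraries and at 133 and 145 CPM in the WT libraries beside them. The groups did not overlap, and the log2 fold change was 1.59 (SE 0.14, edgeR adjusted p = 5.05e-07), a 3.01-fold difference. At 1 h the Nrf2-/- libraries stood at 374 and 536 CPM and the WT libraries at 131 and 129 CPM. The stressed Nrf2-/- libraries differed by more than those of any other group but both lay above every WT library, at a log2 fold change of 1.81 (SE 0.14).

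The genes of the proline branch moved with Asns. Pycr1, a low-level gene, was at 27.0 and 26.9 CPM in isosmotic Nrf2-/- libraries against 9.92 and 9.73 CPM in WT, a log2 fold change of 1.46 (SE 0.15, edgeR adjusted p = 3.38e-06). At 1 h it was at 32.9 and 33.5 CPM against 10.3 and 10.7 CPM, a log2 fold change of 1.66 (SE 0.15). It was the member with the closest replicates in Nrf2-/- cells at 1 h. Aldh18a1 was at 446 and 409.5 CPM against 239 and 241 CPM without stress, a log2 fold change of 0.83 (SE 0.09), and at 453 and 502 CPM against 209 and 211 CPM at 1 h, a log2 fold change of 1.19 (SE 0.09).

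The genes of the serine branch did not move as a block. Phgdh, at the head of the chain, was at 779.7 and 704 CPM in isosmotic Nrf2-/- libraries and at 786 and 771 CPM in WT libraries. These overlapped, with a log2 fold change of -0.07 (SE 0.09, edgeR adjusted p = 0.625). At 1 h its log2 fold change was 0.21 (SE 0.09, edgeR adjusted p = 0.112), and DESeq2 called it higher (0.25, adjusted p = 0.0128). Psat1 was higher at both times, at 632 and 594 CPM against 375 and 393 CPM without stress and at 605 and 786 CPM against 355 and 356 CPM at 1 h. Its log2 fold changes were 0.68 (SE 0.11) and 0.97 (SE 0.11).

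Psph, the last enzyme of the chain, was at 94.3 and 99.7 CPM against 52.0 and 52.3 CPM without stress, a log2 fold change of 0.90 (SE 0.14, edgeR adjusted p = 0.000167). At 1 h it was at 122 and 82.0 CPM against 42.4 and 39.9 CPM, a log2 fold change of 1.31 (SE 0.14). Its overlapping partner Cct6a did not pass the test without stress, at 0.11 (SE 0.09), and was higher by 0.28 (SE 0.09) at 1 h. How far reads of Cct6a enter the Psph count was not tested.

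In the mitochondrial folate steps, Mthfd2 was at 269 and 279.6 CPM against 141 and 144 CPM without stress, and at 322 and 271 CPM against 140.4 and 131 CPM at 1 h. The groups lay apart at both times, with log2 fold changes of 0.94 (SE 0.10) and 1.12 (SE 0.10). Shmt2 had the smallest difference of the 8, at 470.1 and 427 CPM against 348 and 318 CPM without stress, a log2 fold change of 0.43 (SE 0.15, edgeR adjusted p = 0.032). That call was lost without any 1 of the 4 libraries compared, at adjusted p of 0.0638 to 0.172. At 1 h its Nrf2-/- libraries stood at 591 and 393 CPM and its WT libraries at 324 and 329 CPM, a log2 fold change of 0.59 (SE 0.15).

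The transsulfuration genes went in opposite directions. Cth had the largest difference of the 10, at 55.5 and 60.7 CPM in isosmotic Nrf2-/- libraries against 9.49 and 10.1 CPM in WT libraries. This was 5.92-fold, a log2 fold change of 2.56 (SE 0.22, edgeR adjusted p = 3.74e-07). At 1 h Cth was at 59.9 and 39.3 CPM against 9.29 and 11.0 CPM, a log2 fold change of 2.29 (SE 0.21). Cbs, counted in few reads, gave 8 and 4 counts in isosmotic Nrf2-/- libraries and 31 and 51 counts in the WT libraries, a log2 fold change of -2.40 (SE 0.50, edgeR adjusted p = 0.00184). At 1 h Cbs gave 35 and 32 counts against 73 and 74 counts, a log2 fold change of -0.97 (SE 0.40, edgeR adjusted p = 0.0798). U2af1, the expressed gene that ends before Cbs, was lower by log2 fold changes of -0.54 (SE 0.20) and -0.63 (SE 0.20) in the same comparisons, and its part in the Cbs counts was not tested.

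The 8 calls at 1 h were all kept when any 1 of the 16 libraries was left out, and without the second Nrf2-/- 1 h library Phgdh was called higher as well (0.25, edgeR adjusted p = 0.0252). In a fit to the 4 libraries compared alone, 6 of them were kept, and Psat1 (adjusted p = 0.0556) and Shmt2 (adjusted p = 0.218) were not. Some collecting duct markers also differed between the lines, in either direction. Among those over 1 CPM in every library, Hoxb7, Cdh1, Krt8, Krt18 and Krt19 overlapped between Nrf2-/- and WT libraries. Without overlap, Pax8 was lower and Epcam and Tfcp2l1 were higher in Nrf2-/- libraries, beside the markers that follow. Cdh16 was at 14.1 to 25.5 CPM in Nrf2-/- and 165 to 463 CPM in WT libraries, Pax2 at 23.6 to 27.5 and 119 to 1146 CPM, and Krt7 at 833.5 to 1308 and 158 to 380 CPM. Whether these differences between the lines bear on the enzymes was not tested.

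Hyperosmotic stress was applied to WT cells to ask how the enzymes changed with time under stress. At 1 h no enzyme passed the test, with DMSO or with SFN, where 11.2% of all genes (7.1% higher, 4.11% lower) and 9.52% (5.94% higher, 3.58% lower) did. Without adjustment, 0 and 3 of the 10 were under 0.05 in edgeR, and DESeq2 called 0 in both. The medians of the 10 were -0.0421 and -0.0652 on the log2 scale, against 0.00158 and 0.0205 over all genes. With SFN, Psph at -0.34 (SE 0.14) and Aldh18a1 at -0.19 (SE 0.09) were called lower when either Nrf2-/- 1 h library was left out. In Nrf2-/- cells 1 enzyme was called at 1 h, where 7.17% of all genes were (4.36% higher, 2.81% lower), and this was Cbs. It went from 8 and 4 counts to 35 and 32 counts, a log2 fold change of 2.50 (SE 0.51, edgeR adjusted p = 0.00798), and the call was lost without the second isosmotic Nrf2-/- library (adjusted p = 0.106). Leaving out either Nrf2-/- 1 h library gave 5 calls in place of 1, and they differed with the library left out: Psat1, Asns and Aldh18a1 were called higher and Cth lower without the first, and Phgdh, Psph, Shmt2 and Mthfd2 were called higher without the second, beside Cbs. The difference between the 1 h effect in Nrf2-/- and in WT cells passed for none of the 10, where 0.123% of all genes passed (0.0615% higher and 0.0615% lower). Without adjustment 2 of the 10 were under 0.05 in edgeR, and DESeq2 called 0. Here too the library left out changed the calls. Without the first Nrf2-/- 1 h library, Psat1 (0.47 in place of 0.29), Asns (0.45 in place of 0.22) and Aldh18a1 (0.42 in place of 0.35) were called, and without the second, Psph (0.67 in place of 0.41) and Shmt2 (0.43 in place of 0.16) were.

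By 6 h the enzymes had split. Against isosmotic DMSO cells, 3 of the 10 were higher and 1 was lower, where 23.9% of all genes were higher and 22% lower (45.9% in either direction). With SFN, 3 were higher and 3 lower, where 24.7% of all genes were higher and 22.9% lower (47.6% in either direction). The medians of the 10 were 0.0873 and 0.131, against 0.0476 and 0.0855 over all genes. Nothing particular to the enzymes is read from these counts.

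**Figure D3:**
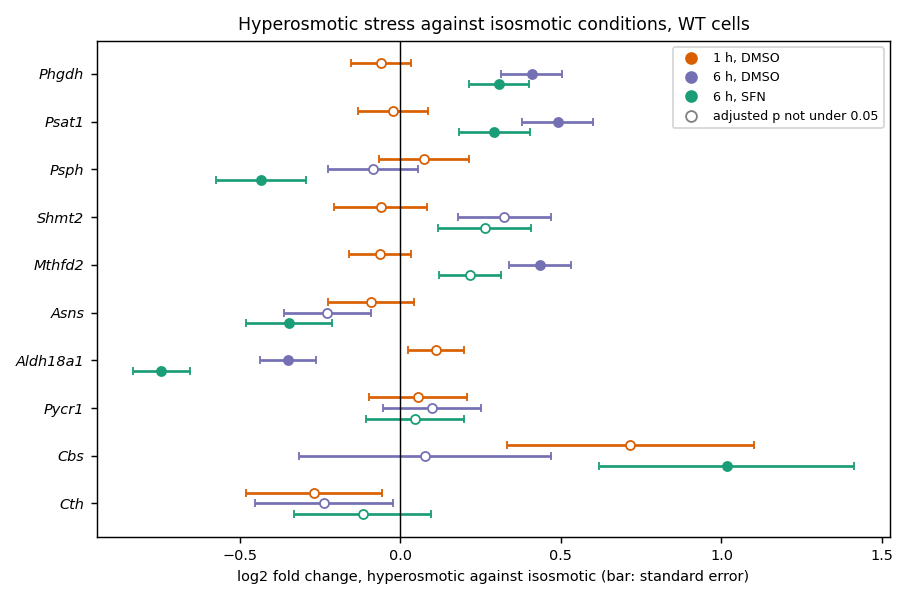
Log2 fold change of each enzyme under hyperosmotic stress against isosmotic WT cells, at 1 h and 6 h with DMSO and at 6 h with SFN (n = 2 libraries per group); bars are standard errors, and open points did not pass an adjusted p of 0.05. At 6 h Phgdh and Psat1 lie to the right and Aldh18a1 lies to the left with both pretreatments, while no enzyme has a filled point at 1 h.

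Phgdh and Psat1, the first steps to serine, rose with both pretreatments. Phgdh went from 723 and 818 CPM in isosmotic DMSO libraries to 1005 and 1039.6 CPM at 6 h, a log2 fold change of 0.41 (SE 0.09, edgeR adjusted p = 0.00247). With SFN it went from 786 and 771 CPM to 936 and 991 CPM, a log2 fold change of 0.31 (SE 0.09, edgeR adjusted p = 0.0142). Psat1 went from 321 and 345 CPM to 469 and 466 CPM with DMSO, a log2 fold change of 0.49 (SE 0.11, edgeR adjusted p = 0.00213), and from 375 and 393 CPM to 470.2 and 471 CPM with SFN, a log2 fold change of 0.29 (SE 0.11, edgeR adjusted p = 0.0403). All 6 h libraries of both genes lay above their isosmotic controls. With SFN, the Psat1 call was lost without any 1 of the 10 WT libraries other than the isosmotic DMSO ones, at adjusted p of 0.0577 to 0.17, and the Phgdh call without 3 of the 4 libraries compared (the second at 6 h and either isosmotic one), at 0.0525 to 0.0996.

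Mthfd2 and Shmt2 leaned the same way. Mthfd2 rose from 123 and 129 CPM to 171 and 169 CPM with DMSO, a log2 fold change of 0.43 (SE 0.10, edgeR adjusted p = 0.00196). With SFN its log2 fold change was 0.22 (SE 0.10, edgeR adjusted p = 0.0779), and DESeq2 called it higher (0.29, adjusted p = 0.00222). Shmt2 stood at 316 and 322 CPM without stress and 386 and 412 CPM at 6 h with DMSO, at 0.32 (SE 0.15, edgeR adjusted p = 0.0836), and at 0.26 (SE 0.15) with SFN. DESeq2 called Shmt2 higher with DMSO (0.41, adjusted p = 0.014) and with SFN (0.34, adjusted p = 0.0476). Against 1 h with DMSO, where 42.4% of all genes were called (20.4% higher, 22% lower), Psat1, Mthfd2, Phgdh and Shmt2 were higher by 0.51 (SE 0.11), 0.50 (SE 0.10), 0.47 (SE 0.09) and 0.38 (SE 0.15) on the log2 scale. The Shmt2 call in that comparison (edgeR adjusted p = 0.0454) was lost without any 1 library other than the Nrf2-/- 1 h ones, at 0.0555 to 0.191. Against 1 h with SFN, where 42.6% of all genes were called (20.9% higher, 21.7% lower), Psat1 at 0.41 (SE 0.11), Phgdh at 0.37 (SE 0.09) and Mthfd2 at 0.29 (SE 0.10) were higher. Of these, Mthfd2 was lost without any 1 of the 4 libraries compared (adjusted p of 0.0596 to 0.176), Psat1 without either 1 h library (0.0507 and 0.052) and Phgdh without the second 6 h library (0.0516).

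Aldh18a1 fell in all 4 comparisons of 6 h with an earlier time. With DMSO it went from 185 and 187 CPM to 148 and 144 CPM, a log2 fold change of -0.35 (SE 0.09, edgeR adjusted p = 0.00469). With SFN it went from 239 and 241 CPM to 146 and 140.2 CPM, a log2 fold change of -0.74 (SE 0.09, edgeR adjusted p = 9.08e-06). Its log2 fold changes against 1 h were -0.46 (SE 0.09) with DMSO and -0.55 (SE 0.09) with SFN. Pycr1, the other proline gene, was not called in any of the 4, with log2 fold changes from -0.05 to 0.10, each with an SE of 0.15.

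With SFN at 6 h, Psph at -0.44 (SE 0.14, edgeR adjusted p = 0.0196) and Asns at -0.35 (SE 0.14, edgeR adjusted p = 0.047) were also lower than in isosmotic cells, and Cbs was higher at 1.02 (SE 0.40, edgeR adjusted p = 0.0475). The libraries at 6 h and isosmotic did not overlap for any of these 3 genes, at 37.4 and 39.7 against 52.0 and 52.3 CPM for Psph, 115 and 103 against 133 and 145 CPM for Asns, and 2.17 and 1.43 against 0.831 and 0.945 CPM for Cbs. These calls were fragile. DESeq2 did not call Asns (-0.27, adjusted p = 0.151). Asns was lost without any 1 library other than the Nrf2-/- 1 h ones (adjusted p of 0.0544 to 0.243), Cbs without 9 of the 10 WT libraries other than the isosmotic DMSO ones (0.0542 to 0.296, all but the second SFN 6 h library), and Psph without any 1 of the 4 compared (0.0564 to 0.111). Cct6a, the partner of Psph, was lower too, at -0.27 (SE 0.09). Under the filter of at least 10 counts in every library, all 6 h values moved up by 0.122 with DMSO and 0.132 with SFN, and Asns (-0.21) and Psph (-0.30) were no longer called, whereas Shmt2 and, with SFN, Mthfd2 were called higher and Aldh18a1 kept its calls. Without either Nrf2-/- 1 h library, further calls appeared in WT cells at 6 h: Shmt2 was higher and Asns lower than in isosmotic cells with DMSO, Shmt2 and Mthfd2 were higher than in isosmotic cells with SFN, and Shmt2 was higher and Asns lower than at 1 h with SFN. These 6 h and SFN comparisons share their isosmotic libraries.

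SFN was compared with DMSO in WT cells to ask which enzymes changed with the Nrf2 activator. In isosmotic cells 2 of the 10 were higher and none lower, where 1.09% of all genes were higher and 1.76% lower (2.84% in either direction), and the median of the 10 was 0.12 against 0 over all genes. Psph stood at 52.0 and 52.3 CPM with SFN and at 33.7 and 37.0 CPM with DMSO, a log2 fold change of 0.56 (SE 0.14, edgeR adjusted p = 0.0471), or 1.48-fold. Cct6a was at -0.02 (SE 0.09) in this comparison. Aldh18a1 stood at 239 and 241 CPM with SFN and at 185 and 187 CPM with DMSO, a log2 fold change of 0.37 (SE 0.09, edgeR adjusted p = 0.0389), or 1.29-fold. Neither gene overlapped between groups. Both calls were close to the threshold: Psph was lost without any 1 library other than the Nrf2-/- 1 h ones (adjusted p of 0.0736 to 0.234), and Aldh18a1 without any 1 of the 12 WT libraries (0.0655 to 0.222), while their log2 fold changes stayed at 0.50 to 0.63 and 0.36 to 0.38.

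**Figure D4:**
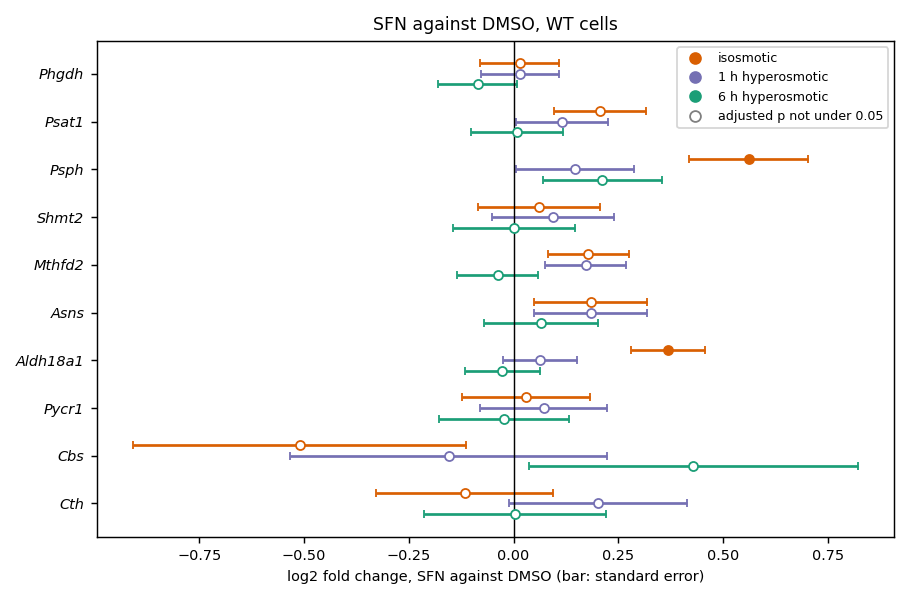
Log2 fold change of each enzyme with SFN against DMSO in WT cells, isosmotic and after 1 h or 6 h of hyperosmotic stress (n = 2 libraries per group); bars are standard errors, and open points did not pass an adjusted p of 0.05. Only the isosmotic points of Psph and Aldh18a1 are filled.

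Asns at 0.18 (SE 0.14), Psat1 at 0.21 (SE 0.11) and Mthfd2 at 0.18 (SE 0.10) did not pass with SFN in isosmotic cells, although Psat1 was called without either Nrf2-/- 1 h library, and Phgdh was at 0.01 (SE 0.09), Pycr1 at 0.03 (SE 0.15) and Cth at -0.12 (SE 0.21). At 1 h and at 6 h of stress none of the 10 passed, where 0.0923% and 0.041% of all genes did, each of them higher. None was under 0.05 there without adjustment in edgeR, and DESeq2 called 0 at both times. In a fit to the 4 libraries compared alone, 3 were called higher at 1 h, namely Asns at 0.18, Mthfd2 at 0.17 and Psat1 at 0.11. The SFN effect under stress minus that in isosmotic cells was called for 0 of the 10 at 1 h and at 6 h, where 0.559% of all genes (0.487% higher, 0.0718% lower) and 0.759% (0.595% higher, 0.164% lower) were called. Without adjustment 1 of the 10 was under 0.05 at each time in edgeR, and DESeq2 called 0. Aldh18a1 had the difference at 6 h with the smallest p, at -0.39 (SE 0.13, edgeR adjusted p = 0.254), and it was called in the 12 WT libraries alone (adjusted p = 0.00936) and without either Nrf2-/- 1 h library. At 1 h, Psph at -0.41 (SE 0.20) was called without the second of them.

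The integrated stress response genes were read beside the enzymes. Atf4 itself did not pass in Nrf2-/- cells, at 383 and 407 CPM against 437 and 414 CPM in isosmotic WT cells with SFN, a log2 fold change of -0.11 (SE 0.13), and -0.10 (SE 0.13) at 1 h. These are mRNA values, and Atf4 is known to be controlled largely at translation. Of the 10 regulators listed, 4 were higher and 1, Nfe2l2 itself, was lower in isosmotic Nrf2-/- cells, and 5 were higher and 3 lower at 1 h, where 15.7% and 18.4%, and 15.3% and 16.2%, of all genes were higher and lower. The Nrf2-/- 1 h libraries were spread, for example at 30.5 and 16.8 CPM for Ddit3 and 105 and 57.0 CPM for Atf5. Calls of regulators were not checked by leaving out a library. The values that follow are for isosmotic cells and for 1 h in turn. Atf5, a related factor, was higher by 1.15 (SE 0.20) and 1.31 (SE 0.20), Trib3, an inhibitor of Atf4, by 1.25 (SE 0.15) and 1.15 (SE 0.15), and Ddit3, the stress factor CHOP, by 0.80 (SE 0.26) and 1.16 (SE 0.26). Sesn2, a sensor of leucine, was higher by 0.49 (SE 0.13) and 1.09 (SE 0.13), while Chac1, which breaks down glutathione, was called at 1 h, at 1.101 (SE 0.19), and not in isosmotic cells, at 0.27 (SE 0.19). Nupr1, a stress-induced chromatin protein, was not called, at 0.23 (SE 0.50) and -0.11 (SE 0.49). The kinases Eif2ak3, of the unfolded protein response, at -0.07 (SE 0.11) and -0.34 (SE 0.11), and Eif2ak4, which senses uncharged tRNA, at -0.29 (SE 0.11) and -0.37 (SE 0.11), were called lower at 1 h.

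**Figure D5:**
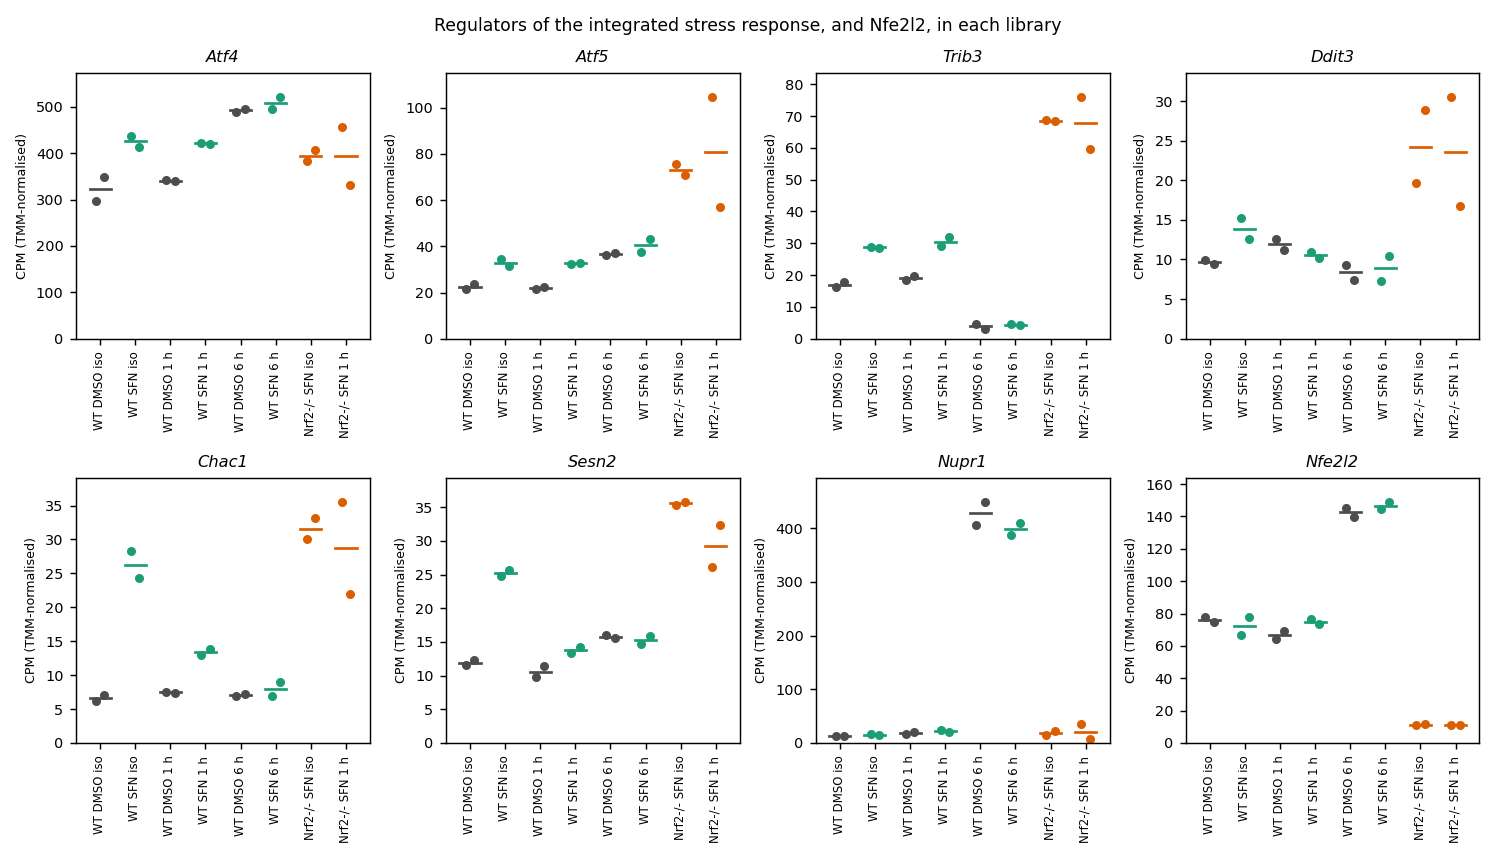
CPM (TMM-scaled, linear axes from 0) of 7 integrated stress response genes and of Nfe2l2 in each of the 16 libraries; points are libraries and lines are group means (n = 2). Trib3 falls at 6 h in WT cells and is highest in Nrf2-/- cells, Nupr1 is high only in the 6 h libraries, Chac1 and Sesn2 are higher with SFN in isosmotic WT cells, and Nfe2l2 is low in the 4 Nrf2-/- libraries.

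With SFN in isosmotic WT cells, 3 of these 10 regulators were higher and none lower, where 1.09% and 1.76% of all genes were: Chac1, at 28.3 and 24.3 CPM against 6.22 and 7.12 CPM, a log2 fold change of 1.98 (SE 0.20, edgeR adjusted p = 4.21e-05), Sesn2 at 1.08 (SE 0.13) and Trib3 at 0.76 (SE 0.15). Atf4 was at 0.40 (SE 0.13, edgeR adjusted p = 0.123). At 1 h of stress with SFN, Chac1 at -0.97 (SE 0.19, edgeR adjusted p = 0.00537) and Sesn2 at -0.88 (SE 0.13, edgeR adjusted p = 0.000705) were lower than in isosmotic cells. With DMSO at 1 h the regulators lay between -0.20 and 0.42, and the smallest edgeR adjusted p was 0.067, for Eif2ak3 at 0.34 (SE 0.11). At 6 h of stress the regulators diverged from each other. With DMSO, Atf4 rose from 296 and 348 CPM to 489 and 496 CPM, a log2 fold change of 0.61 (SE 0.13, edgeR adjusted p = 0.00122), Atf5 by 0.70 (SE 0.20) and Sesn2 by 0.40 (SE 0.13). Nupr1 went from 13.7 and 13.2 CPM to 406 and 449 CPM, a log2 fold change of 4.99 (SE 0.56). Trib3 fell, from 16.2 and 17.8 CPM to 4.72 and 3.15 CPM, a log2 fold change of -2.11 (SE 0.17), and so did Eif2ak4, at -0.64 (SE 0.11). Nfe2l2 rose at 6 h by 0.90 (SE 0.10) with DMSO and 1.02 (SE 0.10) with SFN. Nupr1 was also higher with SFN, at 4.70 (SE 0.56). With SFN at 6 h, Trib3 at -2.71 (SE 0.17), Chac1 at -1.73 (SE 0.20), Sesn2 at -0.73 (SE 0.13), Eif2ak4 at -0.84 (SE 0.11) and Eif2ak3 at -0.51 (SE 0.11) were lower than in isosmotic cells. The SFN effect on Chac1 and on Sesn2 was smaller at 6 h than in isosmotic cells, by log2 differences of -1.82 (SE 0.28, edgeR adjusted p = 0.00471) and -1.13 (SE 0.18, edgeR adjusted p = 0.0069).

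A list of 35 further enzymes of serine, folate, proline, methionine, cysteine and glutamate metabolism, of which 34 were tested, was read for comparison. In isosmotic Nrf2-/- against WT cells 4 of these were higher and 15 lower, and at 1 h 8 were higher and 11 lower, where 15.7% and 18.4%, and 15.3% and 16.2%, of all genes were higher and lower. Their medians were -0.29 and -0.211 on the log2 scale, against -0.000912 and -0.0219 over all genes. Gpt2, which links alanine to glutamate, was the one with the largest rise, at 162 and 161 CPM against 35.3 and 37.0 CPM without stress, a log2 fold change of 2.16 (SE 0.11). Glul, the glutamine synthetase, was at 3.44 and 3.20 CPM against 18.0 and 16.5 CPM, a log2 fold change of -2.38 (SE 0.18). Asrgl1, which cleaves asparagine, had 0 counts in both isosmotic Nrf2-/- libraries and 299 and 348 counts in the WT libraries, and so was at least 84.8-fold higher in WT cells with a floor of 3 counts per library. At 1 h it gave 2 and 1 counts against 273 and 301 counts.

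At 1 h of stress with DMSO 1 was higher and 1 lower, where 7.1% and 4.11% of all genes were. Gldc, which cleaves glycine, went from 0 counts in both isosmotic libraries to 69 and 70 counts, at least 23.9-fold with a floor of 3 counts per library, and was back to 0 and 2 counts at 6 h. Mat2a, which makes S-adenosylmethionine upstream of transsulfuration, was lower at 1 h by -0.75 (SE 0.10). It did not stay low: with DMSO its group means were 341 CPM in isosmotic cells, 203 CPM at 1 h and 545 CPM at 6 h. The log2 fold change of 6 h against 1 h was 1.42 (SE 0.10). At 6 h with DMSO 8 were higher and 7 lower, and with SFN 8 were higher and 11 lower, where 23.9% and 22%, and 24.7% and 22.9%, of all genes were higher and lower, and nothing particular to the list is read from these counts. Among those higher at 6 h with DMSO were Cdo1, which oxidises cysteine, at 2.07 (SE 0.56), and Glul at 0.99 (SE 0.16). With SFN against DMSO in isosmotic cells 1 was higher and none lower, where 1.09% and 1.76% of all genes were, and this was Gpt2 at 0.52 (SE 0.11). 

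Across the 8 group means, the 10 enzymes resembled each other to different degrees. Psat1 and Shmt2 had the highest Pearson correlation (r = 0.991, n = 8 groups) and Cbs and Cth the lowest (r = -0.785). Phgdh had an r between -0.422 and 0.451 with the other 9. Over the 6 WT groups alone, where the Nrf2-/- libraries play no part, Phgdh went with Shmt2 (r = 0.976), Psat1 (0.948) and Mthfd2 (0.934) and against Aldh18a1 (-0.874). Among 12281 genes with at least 50 counts on average, those most like the mean of the 10 were Ptk2 (r = 0.996), Slc7a5 (0.996), Eif4g2 (0.987), Eif3c (0.983) and Mcmbp (0.983). Slc7a5, which imports large neutral amino acids, stood at 486 CPM (± 34.5 SD, n = 2) in isosmotic Nrf2-/- cells and 348 CPM (± 13.8 SD, n = 2) in the WT cells beside them. Those most like Asns were Asph (r = 0.998), Lrrc8c, Reep6, Pam and Alkal1 (0.997 each). Alkal1 had group means of 0.0587 to 0.238 CPM in WT cells and of 5.10 and 5.38 CPM in Nrf2-/- cells. It reached the limit of 50 counts only through the Nrf2-/- libraries, so its r describes the step between the lines. The r of Asph, Lrrc8c, Reep6 and Pam likewise rests largely on this step. Reep6, for example, had group means of 62.8 and 62.4 CPM in Nrf2-/- cells and 11.9 to 17.6 CPM in WT cells. The genes most like the mean of the 10 also had their highest group means in Nrf2-/- cells. The group means share libraries, depth and scaling, and these values are descriptions.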

How the data were processed

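RNA from the 16 libraries was sequenced on an Illumina NovaSeq. The authors aligned reads to mm10 (Hisat2 in the study's methods, Bowtie2 in the submitters' processing notes), sorted them with SAMtools, counted them per gene symbol with featureCounts and deposited raw counts. Versions, annotation, strand and the treatment of shared reads are not given in the sources used here. Lines without a symbol (2 in the first WT DMSO isosmotic library and 3 in the first Nrf2-/- isosmotic library) were left out.

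Counts were tested in R 4.3.3 with edgeR 4.0.16 (robust quasi-likelihood F-test, TMM, filterByExpr) with a coefficient for each of the 8 groups and Benjamini-Hochberg adjusted p under 0.05 over 19509 genes. DESeq2 1.42.0 was an alternative. The scripts were tested on simulated counts. There, 92 genes were changed by 1 log2 unit and 108 by 2, up or down, in isosmotic WT cells with SFN. In that comparison edgeR called 42.4% and 66.7% of them, and 5 unchanged genes. A change that was not called is therefore not shown to be absent. The 10 genes, the lists and the comparisons were chosen with earlier results of these data known. The 10 genes and 10 regulators were named by rule, and of the 35 further enzymes at most the 3 with the largest called change per comparison (1 of these is not reported here). With 2 libraries a group, an exact permutation test cannot go below p = 0.333, and intervals from counts cover counting error only. The extraction protocol in the labels names primary TEC, and all other label fields name mIMCD3. Positions are those of GENCODE M21.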

Additional observations from a re-analysis of the deposited data

How the results depend on the processing

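In Nrf2-/- against WT cells, the number of the 10 enzymes called stayed at 8 to 9 in isosmotic cells and at 8 to 9 at 1 h when each of the 16 libraries was left out in turn (a group left with 1 library borrows its spread from the others). With 2 libraries a group, differences well above the standard errors given can go uncalled, and Cbs rests on few counts. With SFN in isosmotic WT cells, Psat1 at 0.21 (SE 0.11) was not called, and Psph at 0.56 (SE 0.14) was close to the threshold. The fit to the 14 libraries other than Nrf2-/- at 1 h was added after the data were seen. The causes of the changes below were not tested, except that the strict filter removes Cbs.

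The number of the 10 enzymes called with SFN in isosmotic WT cells was 2, and it was 1 with no filter and 0 to 3 when leaving out 1 library. At 1 h with SFN against DMSO it was 0, and 3 in the libraries compared alone. For 1 h against isosmotic WT cells with SFN it was 0, against 1 in the libraries compared alone, 2 in the 12 WT libraries, 2 in the 14 libraries and 0 to 2 when leaving out 1 library. For Nrf2-/- cells at 1 h it was 1, against 0 with the strict filter (at least 10 counts in every library), 0 in the libraries compared alone and 0 to 5 when leaving out 1 library. For the SFN effect at 6 h minus that in isosmotic cells it was 0, against 1 in the 12 WT libraries, 1 in the 14 libraries and 0 to 1 when leaving out 1 library. When leaving out 1 library the number was 1 to 8 at 6 h against isosmotic with SFN (6 in all libraries, 1 without either isosmotic SFN library), 2 to 6 at 6 h against 1 h with SFN (4 in all libraries), 0 to 1 for the SFN effect at 1 h minus isosmotic and 0 to 3 for the 1 h effect in Nrf2-/- minus WT cells (0 in all libraries for both).

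Replicate numbers, taken from the sample titles, showed no clear pairing of the samples: over 28 pairs of groups the correlation of same-numbered deviations was -0.0794 to 0.123, and 1 exceeded 0.1. The file names number the WT SFN isosmotic replicates differently, so the numbering of that group is uncertain. With the replicate block, 0 enzymes were called with SFN in isosmotic cells (Psph adjusted p = 0.068, Aldh18a1 0.0622), 4 in place of 6 at 6 h with SFN (Asns adjusted p = 0.052, Cbs 0.0624), and 4 in place of 5 at 6 h against 1 h with DMSO (Shmt2 adjusted p = 0.0536). The block changed no other call.

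These log2 fold changes turned sign on another setting. With DESeq2 they were Psat1 0.011 (1 h, DMSO), Psph 0.00303 (6 h, DMSO), Pycr1 0.0105 and Cbs 0.00414 (6 h against 1 h, SFN) and Phgdh -0.0201 (SFN effect at 1 h minus isosmotic). With RLE size factors they were Psat1 0.011, Psph 0.00306, Pycr1 0.0105, Cbs 0.00409 and Phgdh -0.0201 in the same comparisons. With no filter they were Shmt2 -0.00663 and Cth -0.00369 (SFN at 6 h) and Phgdh -0.00606 (SFN effect at 1 h minus isosmotic). With the strict filter they were Psat1 0.0218 (1 h, DMSO), Psph 0.0368 (6 h, DMSO), Shmt2 0.00625 (1 h, SFN), Cth 0.015 (6 h, SFN), Psph 0.00316 and Pycr1 0.0475 (6 h against 1 h, SFN) and Phgdh -0.00916 (SFN effect at 1 h minus isosmotic). In that last comparison the libraries compared alone gave Phgdh -0.0156, the 12 WT libraries Asns 0.00554 and the 14 libraries Asns 0.00292, and the 14 libraries gave Shmt2 -0.000735 for SFN at 6 h.

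Leaving out 1 library turned the sign of these log2 fold changes, given as ranges. For SFN against DMSO they were Phgdh -0.0711 to 0.105, Shmt2 -0.00527 to 0.124, Pycr1 -0.0592 to 0.125, Cbs -0.95 to 0.137 and Cth -0.386 to 0.218 in isosmotic cells, Phgdh -0.00113 to 0.0324 and Pycr1 -0.131 to 0.303 at 1 h, and Shmt2 -0.0903 to 0.0863, Asns -0.0149 to 0.141, Aldh18a1 -0.0565 to 0.00272, Pycr1 -0.153 to 0.121 and Cth -0.123 to 0.122 at 6 h. For stress with DMSO they were Phgdh -0.147 to 0.0291, Psat1 -0.0752 to 0.0314, Pycr1 -0.177 to 0.257 and Cth -0.538 to 0.0662 at 1 h, Pycr1 -0.0454 to 0.228, Cbs -0.363 to 0.724 and Cth -0.508 to 0.0967 at 6 h, and Pycr1 -0.159 to 0.276 and Cth -0.0688 to 0.139 at 6 h against 1 h. For stress with SFN they were Shmt2 -0.0912 to 0.0381 and Cth -0.0793 to 0.167 at 1 h, Cth -0.244 to 6.49e-05 at 6 h and Cbs -0.388 to 0.211 at 6 h against 1 h. For Nrf2-/- against WT isosmotic cells it was Phgdh -0.145 to 0.0027. For 1 h against isosmotic Nrf2-/- cells they were Psat1 -0.0199 to 0.354, Psph -0.247 to 0.327, Shmt2 -0.194 to 0.398, Mthfd2 -0.0237 to 0.23, Asns -0.159 to 0.355 and Cth -0.568 to 0.044. For the SFN effect at 1 h minus isosmotic they were Phgdh -0.0899 to 0.0867, Shmt2 -0.03 to 0.0993, Mthfd2 -0.0563 to 0.0423, Asns -0.0853 to 0.0789, Pycr1 -0.161 to 0.273, Cbs -0.291 to 0.795 and Cth -0.0166 to 0.588, and at 6 h Shmt2 -0.151 to 0.0256, Pycr1 -0.182 to 0.091 and Cth -0.214 to 0.39. For the 1 h effect in Nrf2-/- minus WT cells they were Shmt2 -0.162 to 0.426 and Asns -0.0659 to 0.452.

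Counts over all genes tested moved by more than 1.5 times as follows. With SFN in isosmotic cells 555 became 1134 with DESeq2, 1103 with no filter, 1560 in the libraries compared alone, 2862 in the 12 WT libraries and 2773 in the 14 libraries. With SFN at 1 h 18 became 51, 42, 931, 105 and 92 in the same order, and at 6 h 8 became 23, 16, 123, 50 and 41, beside 4 with RLE size factors and 2 with the block. In the same order the SFN effect at 1 h minus isosmotic went from 109 to 277, 257, 418, 614 and 585, and that at 6 h from 148 to 370, 310, 482, 786 and 764. At 1 h against isosmotic with DMSO 2186 became 654 with the strict filter, 3966 in the libraries compared alone, 4390 in the 12 WT libraries and 4287 in the 14 libraries, and with SFN 1857 became 535 with the strict filter and 3523 and 3360 in those WT and 14-library fits. For Nrf2-/- against WT cells at 1 h 6154 became 1526 in the libraries compared alone. For Nrf2-/- cells at 1 h 1399 became 2130 with no filter, 295 with the strict filter and 137 in the libraries compared alone, and for the 1 h effect in Nrf2-/- minus WT cells 24 became 128 with DESeq2, 160 with no filter, 10 with the strict filter and 0 in the libraries compared alone.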
